A study of Rattus norvegicus with 4 samples.

Results

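The cytochrome P450 genes of NR8383 cells were described across 4 arrays. They were taken as every non-control probe whose RefSeq accession maps to a rat symbol made of Cyp, a family number, a subfamily letter and a gene number, which leaves out Cyp51, together with Por and Ahr. The rule found 71 genes, namely 69 Cyp genes, Por and Ahr, of 16581 named genes on the array, and 90 of 21109 named probes. NR8383 is a macrophage line established by lavage of the lung of a normal rat. All 4 samples were total RNA of cells after 20 passages, grown for 48 h and then kept for 4 h with carbon nanotubes functionalized with NH2 groups (NRCWE049) at a dose of 1.2 cm²/cm². Unexposed cells of the series were not analysed here, so the values describe exposed cells and no effect of the nanotubes was measured. The 4 samples are biological replicates of this 1 line, per the series' design text.

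Cytochrome P450 enzymes are haem proteins that insert oxygen into drugs, pollutants, fatty acids, steroids, sterols and vitamins. Microsomal P450s take their electrons from NADPH through the reductase encoded by Por, and mitochondrial P450s through ferredoxin. The liver expresses most drug-metabolizing P450s at high levels. Macrophages are known for a few P450s that act on sterols, vitamin D and arachidonic acid. The receptor encoded by Ahr binds planar aromatic compounds and is the classical inducer of Cyp1a1, Cyp1a2 and Cyp1b1.

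Most P450 genes gave no signal well above background in the exposed macrophages. A gene counted as detected when at least 1 of its probes was marked by the Agilent software as well above background on all 4 arrays. By this rule 13 of 69 Cyp genes (18.8%) were detected, against 52.5% of all named genes. The 13 were the same where 3 of 4 arrays sufficed (53.9% of all named genes). Agilent's weaker flag, for positive and significant signal, passed 23 of 69 Cyp genes on all arrays, against 61.7% of all named genes. The detected genes were Cyp2c7, Cyp2d1, Cyp2d5 and Cyp2s1 of the xenobiotic families, Cyp2j3, Cyp4a8, Cyp4b1, Cyp4f6 and Cyp4f17 of fatty acid metabolism, the steroidogenic Cyp21a1, the sterol hydroxylase gene Cyp27a1, the vitamin D hydroxylase gene Cyp27b1, and Cyp20a1, an orphan P450. A further 4 genes passed on 1 or 2 arrays, and 52 on none. Por was detected and Ahr was not. In bulk RNA, fewer cells with a transcript and less transcript per cell cannot be told apart.

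**Figure D1:**
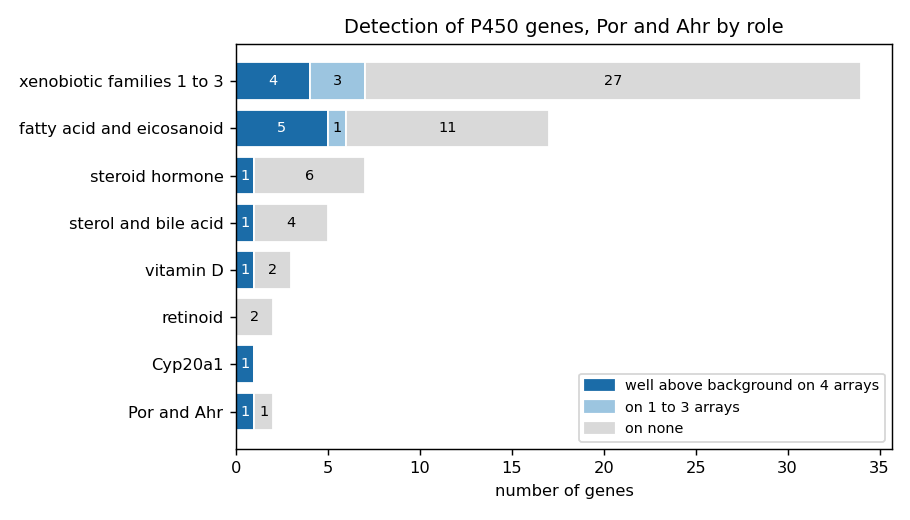
Number of genes (horizontal axis) in each functional role, divided by whether a probe was well above background on all 4 arrays, on 1 to 3 arrays or on none. Of the 34 genes of the xenobiotic families, 4 were detected on all arrays and 27 on none. Of 17 genes of fatty acid metabolism 5 were detected. Over all named genes the detected share was 52.5%.

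The detected share differed between genes with 1 probe and genes with more. Of 55 Cyp genes with 1 probe, 8 (14.5%) were detected, and of 14 with 2 or more probes, 5 (35.7%) were. Over all named genes the shares were 48.8% with 1 probe and 65.7% with more. A gene needed only 1 passing probe, so more probes gave more chances to pass. Which genes have several probes was not controlled, and why the shares differ was not tested. A missing signal from a single probe sets no bound on other transcripts of that gene. The reference table holds 87 protein-coding symbols that match the rule, and 18 of these, among them Cyp2b1, Cyp2u1, Cyp2w1, Cyp26c1 and Cyp46a1, had no named probe and were not analysed here.

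The cells showed macrophage markers and few markers of tissues rich in P450s. All 6 macrophage genes looked up were detected (Cd68, Csf1r, Spi1, Mrc1, Itgam and Fcgr1a), where 52.5% of all named genes were. Of 7 hepatocyte genes, Tf was detected, and Alb, Apoa1, Ttr, Serpina1, Fgb and Ahsg were above background on no array. None of 4 genes of steroidogenic cells (Star, Nr5a1, Hsd3b1 and Cyp11a1) passed on any array. Of 6 lung epithelial genes, Sftpa1 passed on 1 array and Scgb1a1, Sftpc, Sftpb, Epcam and Cdh1 on none. Of 3 fibroblast genes, Dcn passed on 1 array. The lists were chosen with earlier results of these data known, so the counts are no independent test of cell identity.

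Promoter sequences are shown for 4 detected genes because these genes span the range of CG content among detected P450s. The windows run from 250 bases before to 50 bases after the annotated start, from RefSeq on the GRCr8 build, written 5′ to 3′ on the gene's strand, with CG dinucleotides in capitals. The array annotation uses another build, and only these windows carry coordinates. Cyp20a1 lies at chr9:69249623-69249922 (plus strand), Cyp2s1 at chr1:90453024-90453323 (minus strand), Cyp4a8 at chr5:133970177-133970476 (minus strand) and Cyp2c7 at chr1:247966144-247966443 (plus strand).
Cyp20a1: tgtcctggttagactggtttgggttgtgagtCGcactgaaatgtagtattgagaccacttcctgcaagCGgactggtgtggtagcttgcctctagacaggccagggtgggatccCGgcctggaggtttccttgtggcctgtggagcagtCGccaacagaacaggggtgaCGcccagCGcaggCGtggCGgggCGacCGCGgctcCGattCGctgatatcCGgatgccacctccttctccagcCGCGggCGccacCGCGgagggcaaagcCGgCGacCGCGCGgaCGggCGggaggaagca
Cyp2s1: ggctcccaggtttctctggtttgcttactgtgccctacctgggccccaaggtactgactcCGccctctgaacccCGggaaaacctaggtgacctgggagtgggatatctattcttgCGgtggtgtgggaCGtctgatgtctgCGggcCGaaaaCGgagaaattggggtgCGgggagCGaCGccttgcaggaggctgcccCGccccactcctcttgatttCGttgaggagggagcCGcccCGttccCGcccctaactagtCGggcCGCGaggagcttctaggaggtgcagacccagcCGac
Cyp4a8: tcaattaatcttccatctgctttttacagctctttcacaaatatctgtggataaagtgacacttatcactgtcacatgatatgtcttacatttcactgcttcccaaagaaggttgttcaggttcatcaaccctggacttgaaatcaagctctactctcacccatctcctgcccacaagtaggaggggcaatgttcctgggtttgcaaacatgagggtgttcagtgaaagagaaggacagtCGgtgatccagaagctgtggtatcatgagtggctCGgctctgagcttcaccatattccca
Cyp2c7: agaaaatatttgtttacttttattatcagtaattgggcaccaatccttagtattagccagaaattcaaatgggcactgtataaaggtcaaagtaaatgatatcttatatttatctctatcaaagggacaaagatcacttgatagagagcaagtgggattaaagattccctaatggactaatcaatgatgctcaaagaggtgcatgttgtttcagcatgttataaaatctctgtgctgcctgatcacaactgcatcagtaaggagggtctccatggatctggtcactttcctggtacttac

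These windows held 26 CG dinucleotides for Cyp20a1, 19 for Cyp2s1, 2 for Cyp4a8 and 0 for Cyp2c7. Of the 13 detected Cyp genes, 12 had a promoter in the table, with a median of 5 CG dinucleotides in 300 bases and a range from 0 to 26. The median was 3 over 40 Cyp genes that were not detected. Over all named genes it was 21 for 6995 detected genes and 6 for 5883 genes that were not. The median of the detected P450 genes was thus below that of all detected genes, with Cyp20a1, Cyp2s1 and Cyp4f6 (13) the highest among them. This is a description and was not tested.

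**Figure D2:**
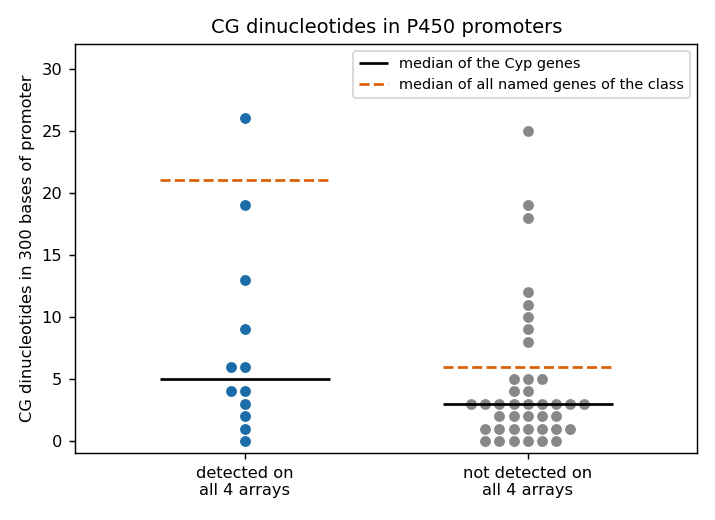
CG dinucleotides in the 300-base promoter window (vertical axis), 1 point per Cyp gene, for genes detected on all 4 arrays and genes that were not. Solid lines mark the Cyp medians of 5 and 3, and dashed lines the medians of all named genes, 21 and 6.

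The core of the Ahr response element, GCGTG, was searched on both strands of the same windows, with overlapping matches counted. It was present in 2 of the 12 detected Cyp genes, Cyp20a1 and Cyp4f6, and in 10 of 40 that were not detected (25.0%), including Cyp1b1. The window of Cyp1a2 had no match. Cyp1a1 had no window here and was not searched, nor was sequence beyond the windows. GCGTG was in 50.2% of the windows of all detected named genes, in 27.4% of those not detected, and in 31.8% of all 24206 windows kept. The letters TATAAA, searched on the gene's strand, were in the windows of Cyp2c7 and Cyp21a1 among the 12 detected Cyp genes and in 10 of the 40 that were not detected. They were in 4.66% of the windows of all detected named genes, 12.9% of those not detected, and 9.25% of all windows kept. A match is a description of the letters and not a binding site.

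Among the genes of the Ahr axis, neither the receptor nor its classical P450 targets were detected. The single Ahr probe had a processed signal of 8.09, 9.04, 12.7 and 10.8 in replicates 1 to 4, all below the lowest signal that any probe well above background had on the same arrays (16.6, 18.0, 20.1 and 20.1). It did carry Agilent's weaker flag for positive and significant signal on all 4 arrays. Cyp1a1 was measured by 1 probe, Cyp1a2 by 2 and Cyp1b1 by 3, and none was well above background on any array. The brightest Cyp1b1 probe had a signal of 12.7, 12.98, 17.7 and 14.8 and also carried the weaker flag on every array. The other Cyp1b1 probes carried that flag on 1 array and on none, so the probes of the gene disagree. The Ahr and Cyp1b1 signals lie close to background in all 4 replicates, so they set a limit of detection and not an order among replicates.

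Of 6 measured genes listed as the Ahr gene battery, 3 were detected, a share near the 52.5% of all named genes. These were the quinone reductase gene Nqo1 (level -2.77 ± 0.13, SD, n = 4), the glucuronosyltransferase gene Ugt1a6 (1.29 ± 0.17) and Nfe2l2, which encodes NRF2 (0.27 ± 0.18). A level is the log2 of the processed signal relative to that array's 75th percentile over the probes detected on all 4 arrays, and follows 1 gene between replicates. The repressor gene Ahrr, Aldh3a1 and Gsta2 were above background on no array, and Tiparp was not measured. Partners of the receptor were detected, among them Arnt, its dimerization partner (-4.07 ± 0.18), Arnt2 (-2.37 ± 0.18) and the chaperone genes Ptges3 and Hsp90ab1.

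Within the xenobiotic families, 4 of 34 genes (11.8%) were detected, against 52.5% of all named genes. Cyp2d1, of a subfamily that oxidizes many basic drugs, had a processed signal of 4359, 4469, 5617 and 5162 in replicates 1 to 4 and a level of 1.15 ± 0.03 (SD, n = 4). Cyp2d5, its neighbour among coding genes of the reference, had signals of 4939, 4988, 6332 and 5686 and a level of 1.31 ± 0.05. Both had their lowest level in replicate 4, and their highest replicate was 1.05 and 1.07 times the lowest. The other members of this cluster differed in detection: Cyp2d4 passed on 2 arrays (signals 18.4, 17.2, 20.0 and 23.9) and Cyp2d2 and Cyp2d3 on none. The Cyp2d genes are close copies and the probe sequences were not used here, so the split of the signal between Cyp2d1 and Cyp2d5 is uncertain. Whether either probe takes transcripts of other P450 genes was not tested, so both detection calls carry this limit.

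Cyp2c7, a P450 known from rat liver, was measured by 5 probes, and 4 of them passed on every array and the fifth on 3. The brightest probe gave a signal of 499, 494, 620 and 600 and a level of -2.00 ± 0.01 (SD, n = 4). Its replicates were within 1.02-fold of each other. The other 3 detected probes spanned 1.15-fold, 1.31-fold and 1.38-fold, so the narrow spread belongs to 1 probe and not to the gene. The probes differed widely in signal, the fifth being near background at 26.3, 25.6, 24.9 and 15.9. The other 7 Cyp2c genes on the array were detected on none, and Cyp2c7l1, a similar gene near Cyp2c7 in the reference, had no named probe. Whether the Cyp2c7 probes take transcripts of other P450 genes was not tested, so the detection call carries this limit.

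Cyp2s1, a P450 known from epithelia and inducible by dioxin, was dim but above background on every array. Its signal was 43.9, 51.6, 77.1 and 65.1, and its level -5.49, -5.26, -5.02 and -5.21. Replicate 1 was lowest and replicate 3 highest, 1.39-fold apart. With normexp on the median signal and an offset of 50, its range narrowed from 0.47 to 0.06 on the log2 scale. The ranges of the dim genes Cyp27b1 (0.29 to 0.07), Cyp2j3 (0.29 to 0.05), Cyp4f17 (0.45 to 0.16) and Cyp21a1 (0.36 to 0.28) narrowed too. Among brighter genes, those of Cyp20a1 (0.47 to 0.45), Cyp27a1 (0.36 to 0.29) and Cyp4a8 (2.01 to 1.81) narrowed. Those of Cyp2c7 (0.03 to 0.14), Cyp2d1 (0.07 to 0.08), Cyp2d5 (0.10 to 0.18), Cyp4b1 (0.10 to 0.18) and Cyp4f6 (0.28 to 0.37) widened. Which of these changes in processing moved the ranges was not tested.

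The remaining genes of the xenobiotic group, which leaves out the Cyp2j genes and Cyp2r1, were near background. Cyp2b15 was above it in replicate 1 alone (signals 25.2, 16.8, 10.7 and 16.7). Cyp2f4, a P450 known from club cells of the airway, passed in replicate 2 alone (3.28, 18.8, 5.87 and 10.7). The 27 genes that passed on no array comprised Cyp1a1, Cyp1a2, Cyp1b1, all 3 Cyp2a genes, 4 Cyp2b genes, 7 Cyp2c genes, Cyp2d2, Cyp2d3, the ethanol-inducible Cyp2e1, Cyp2g1, Cyp2t1 and all 5 Cyp3a genes. Nr1i2 and Nr1i3 encode the receptors PXR and CAR, which induce Cyp3a and Cyp2b genes. Nr1i2 was dim but detected (-5.81 ± 0.38, SD, n = 4) and Nr1i3 was not on any array.

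Of the genes of fatty acid and eicosanoid metabolism, 5 of 17 (29.4%) were detected, against 52.5% of all named genes. Cyp4a8 encodes a fatty acid hydroxylase of the Cyp4a subfamily. Its detected probe had a signal of 571, 2319, 849 and 719 in replicates 1 to 4, and levels of -1.79, 0.23, -1.55 and -1.74. Replicate 2 stood above the other 3, which were close together. The highest replicate was 4.04 times the lowest, and 2.66% of all detected genes spanned more than 2-fold.

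The spread of Cyp4a8 was the widest among the detected P450 genes, with an SD of 0.97 above that of 99.9% of all detected genes. In the limma test of each gene's variance against that of genes of like brightness, it did not pass (adjusted p = 0.233, unadjusted p = 0.000241). It passed with the percentile taken over all probes (adjusted p = 0.0397, limma), without replicate 3 (0.0490) and without replicate 4 (0.0177), and did not with the other 10 settings (0.140 to 0.979, the latter without replicate 2). In each of the 3 settings where it passed, 9 genes passed over the whole array, against 1 in the main setting. The spot was flagged as an outlier on no array. Detected spots within 5 rows and columns, 45 in number, deviated there by a median of 0.00, from -0.80 to 0.74, against 1.97 for Cyp4a8 itself. The other 2 Cyp4a8 probes were above background on no array, with signals from 3.94 to 7.80, so the 3 probes of the gene disagree and the wide spread rests on 1 spot per array.

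**Figure D3:**
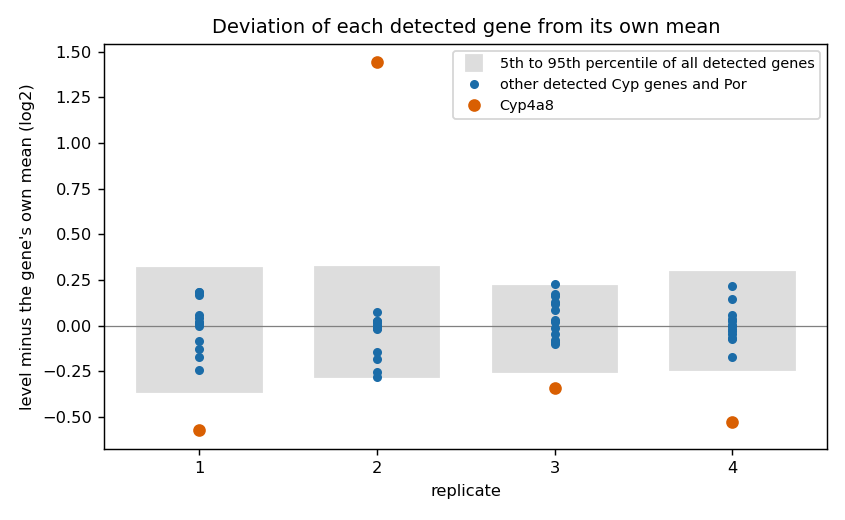
Level of each detected gene minus its own mean over 4 replicates (vertical axis, log2) by replicate, with grey boxes from the 5th to the 95th percentile of all detected genes. Cyp4a8 lies above the box in replicate 2 and below it in the other replicates, and the other detected P450 genes and Por lie within the boxes except Cyp2s1 in replicate 3 (0.23) and Cyp4f17 in replicate 2 (-0.28), each just outside.

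The other Cyp4 genes varied less. Cyp4f6, of a subfamily that hydroxylates leukotrienes and other fatty acids, was detected by both of its probes. The brighter one gave levels of -1.79, -1.99, -2.07 and -2.05, highest in replicate 1, which was also highest for the second probe. Cyp4f17 was dim (signals 41.5, 30.6, 51.1 and 44.4) and lowest in replicate 2, with a level of -5.74 ± 0.20 (SD, n = 4). Cyp4f5 passed in replicate 4 alone (16.7, 15.7, 18.7 and 23.3). The other 4 Cyp4f genes, Cyp4f1, Cyp4f4, Cyp4f18 and Cyp4f40, were detected on none.

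Cyp4b1, a P450 known from lung that acts on fatty acids and xenobiotics, was detected by both of its probes. The brighter probe had a signal of 370, 354, 436 and 434 and a level of -2.47 ± 0.04 (SD, n = 4). The second probe had signals of 52.8, 41.0, 45.4 and 46.04 and spanned 1.47-fold, against 1.07-fold for the brighter one. The level of both was highest in replicate 1. The P450 genes among its coding neighbours, Cyp4a1 and Cyp4a3, were detected on none.

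Cyp2j3, which encodes an arachidonic acid epoxygenase, had a signal of 54.6, 62.8, 84.3 and 76.3 and a level of -5.00 ± 0.12 (SD, n = 4), lowest in replicate 1. Cyp2j4 and Cyp2j10 were detected on none, nor were Cyp4a1, Cyp4a2, Cyp4a3, Cyp4v3 and Cyp4x1. Ppara encodes the fatty acid receptor that induces Cyp4a genes, and it passed on 1 array.

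**Figure D4:**
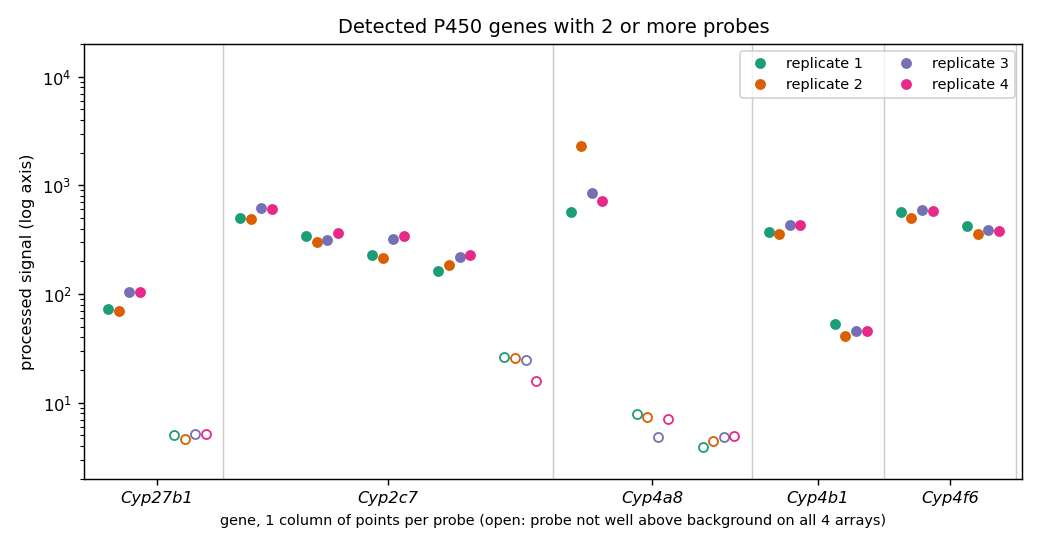
Processed signal (vertical log axis) of each probe of the 5 detected P450 genes with 2 or more probes, 1 column of 4 replicate points per probe. Open points belong to probes that failed detection on at least 1 array: 1 of 2 for Cyp27b1, 1 of 5 for Cyp2c7 and 2 of 3 for Cyp4a8.

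Vitamin D and sterol enzymes that macrophages are known to carry were detected. Cyp27b1 makes the active hormone of vitamin D. Its detected probe had a signal of 73.2, 70.5, 104 and 105 and levels of -4.75, -4.81, -4.58 and -4.52. Replicates spanned 1.22-fold. Its second probe was at 5.20 or below on every array and not above background, so the call rests on 1 of 2 probes. The vitamin D receptor gene Vdr was dim but detected (-5.90 ± 0.34, SD, n = 4).

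Cyp24a1, which inactivates the hormone, and Cyp2r1, which carries out the first activation step, were not detected. The Cyp24a1 spot had a signal of 287 in replicate 1, where it was flagged as nonuniform and left out, and was above background in none of the other replicates. With such spots kept, the gene still did not pass on all arrays.

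Cyp27a1 encodes the mitochondrial sterol hydroxylase that makes an oxysterol from cholesterol in macrophages. Its signal was 423, 363, 585 and 490, and its levels -2.22, -2.45, -2.09 and -2.29, lowest in replicate 2 and highest in replicate 3. The oxysterol receptor genes Nr1h3 (2.76 ± 0.15, SD, n = 4) and Nr1h2 (1.14 ± 0.17) were detected. Cyp7a1, the rate-limiting enzyme of bile acid synthesis, Cyp7b1, Cyp8b1 and Cyp39a1 were detected on none. Of 5 sterol and bile acid genes, Cyp27a1 was therefore the only one detected (20%), against 52.5% of all named genes. Nr1h4, the bile acid receptor gene (-6.17 ± 0.15), was dim but above background on all arrays. Hnf4a, a liver transcription factor gene (-3.36 ± 0.14), was above background on all arrays as well.

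Of 7 genes of steroid hormone synthesis, only Cyp21a1 was detected (14.3%), against 52.5% of all named genes. Cyp21a1 encodes the steroid hydroxylase of the adrenal cortex, and had a signal of 66.0, 61.4, 69.1 and 62.7 and a level of -5.09 ± 0.16 (SD, n = 4). The level was highest in replicate 1 and lowest in replicate 4, 1.28-fold apart. The signal before scaling was highest in replicate 3 and lowest in replicate 2, so the order of replicates depends on the scaling. Cyp11a1, which starts steroid synthesis, Cyp11b1, Cyp11b2, Cyp11b3, Cyp17a1 and the aromatase gene Cyp19a1 were detected on none. The reference also holds a pseudogene, Cyp21a1-ps, with no named probe here, and whether the probe takes its transcripts was not tested.

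The retinoic acid hydroxylase genes Cyp26a1 and Cyp26b1 were not detected. Cyp26a1 had signals of 16.3, 15.5, 12.9 and 11.5, below the lowest signal well above background on each array. The retinoid receptor genes Rara (0.81 ± 0.15, SD, n = 4) and Rxra (-4.34 ± 0.19) were detected.

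Cyp20a1, whose substrate is not known, had signals of 1775, 1638, 2747 and 2749. Its levels were -0.15, -0.27, 0.14 and 0.19. Replicate 2 was lowest and replicate 4 highest, 1.38-fold apart, and the SD of 0.23 was above that of 74.8% of detected genes.

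Most genes of electron transfer and haem synthesis were detected, where 52.5% of all named genes were. Por had signals of 2451, 2448, 2911 and 3080 and a level of 0.30 ± 0.06 (SD, n = 4), with replicates within 1.098-fold. All 9 electron transfer partners were detected, among them the cytochrome b5 genes Cyb5a (1.83 ± 0.08) and Cyb5b (-4.66 ± 0.37) and the b5 reductase gene Cyb5r1 (-3.08 ± 0.21). They included Fdx1 and Fdxr, which encode the ferredoxin and ferredoxin reductase that pass electrons to mitochondrial P450s such as Cyp27a1 and Cyp27b1. Of 9 haem synthesis genes, 8 were detected, including Alas1, the first enzyme (3.12 ± 0.16), and Alad (2.36 ± 0.08), and the exception was Alas2, the erythroid form. Of 15 receptors and their partners, 13 were detected.

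**Figure D5:**
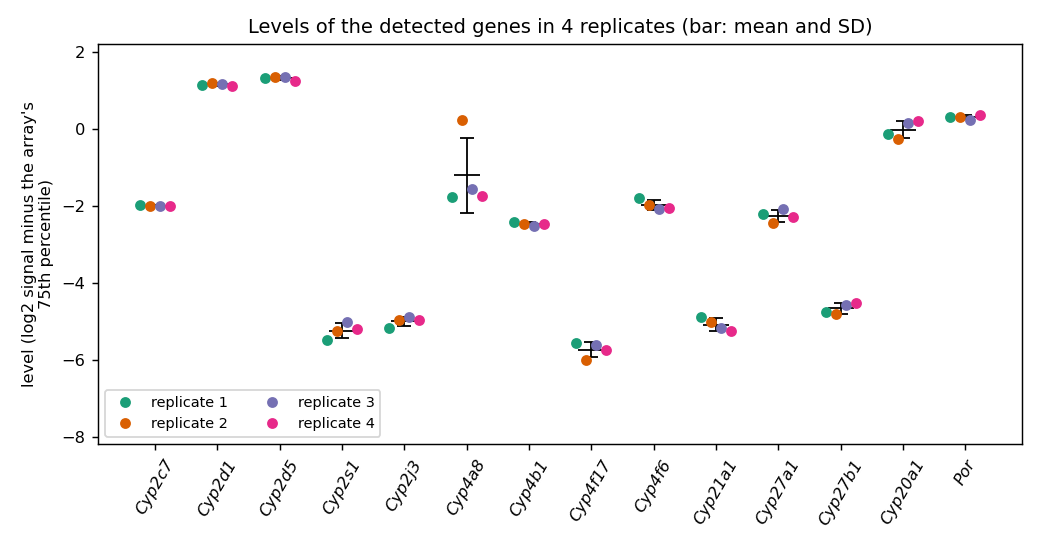
Level (vertical axis, log2 signal minus the 75th percentile of detected probes) of the 13 detected Cyp genes and Por in 4 replicates, with the mean and SD as bars. Points of a gene lie close together except for Cyp4a8, and heights are not compared between genes because each comes from its own probe.

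Replicates of the detected P450 genes were about as close as those of other genes. The median SD of the 13 Cyp genes was 0.138, against 0.151 over 8713 detected genes, and the median ratio of highest to lowest replicate was 1.22 against 1.26. One gene of 13, Cyp4a8, spanned more than 2-fold (7.69%), as did 2.66% of all detected genes. Its spread rests on 1 of 3 probes. The median deviation of the 13 genes from their own means was 0.01, -0.01, 0.03 and -0.02 in replicates 1 to 4, so these medians lay near 0 in every replicate. In the limma variance test 0 of 13 Cyp genes passed at an adjusted p of 0.05, and 1 (Cyp4a8) had an unadjusted p under 0.05. Over all 8713 genes, 0.0115% passed the adjusted and 4.3% the unadjusted threshold.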

How the data were processed

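Each of the 4 arrays measured Cy3-labelled RNA of 1 replicate. The authors deposited spot intensities as processed signals, which Feature Extraction 11.0.1.1 corrects for background, per the file headers and the submitters' processing notes. The sources used here do not say whether arrays were normalized to each other. The deposited flags for outliers, positive and significant signal and signal well above background were used as they stand, per the file headers. All 4 arrays lie on 1 slide scanned in 1 run, so neither could be tested as a batch.

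Control spots (4259 of 62976) and outlier spots were left out, log2 signals of repeated spots were averaged, and 0 spots were saturated. A probe was detected on an array if the flag held for most of its spots. Because 39.3% of 45598 probes were detected on all arrays, levels were scaled to the 75th percentile of these, at a signal of 1970, 1980, 2493 and 2402.5. The number of arrays limits the precision. Accessions were matched without versions to RefSeq genes of GRCr8, which named 21109 probes. A gene's level came from its brightest probe, detected ones first. Roles follow family names, except that the Cyp2j genes were placed under fatty acids and Cyp2r1 under vitamin D. Variance was tested with limma 3.58.1 (R 4.3.3, and the package data.table, version 1.17.8) from an intercept fit, as an F test of residual variance against the intensity trend, with Benjamini-Hochberg adjustment over 8713 genes. On simulated data of 8713 genes the test recovered 0% of genes with a 3-fold or 5-fold SD, 12% with 10-fold and 36% with 20-fold, with 0 false calls. There it found only very wide spreads. The simulation drew spreads from the fitted trend, and 1.91% of its unchanged genes had an unadjusted limma p under 0.05. In the real data 4.3% of genes did, so the simulated rates may not hold for these arrays. Figures used matplotlib 3.10.9 in Python 3.11.15.

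The genes and lists were chosen with earlier results of these data known. Every member is accounted for; detected members have values in each replicate, and of each other list the first 3 detected genes, other list genes being named beside a member they bear on. Some genes that this rule names are left out of the text. Alternatives were other detection rules, scalings, background correction, outlier handling, probe choice, variance models and leaving out each replicate. No mean spot signal is in the files, so normexp used the median signal with an offset of 50. With 1 group, no comparison between conditions was made.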

Additional observations from a re-analysis of the deposited data

Results flagged for a closer look

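Of 14 sets of 4 values, those of the 13 detected Cyp genes and Por, 1 had a replicate far from the other 3: the level of Cyp4a8 in replicate 2. The gap to the nearest replicate was 0.885 of the whole range, above Dixon's 95% critical value for 4 values. Replicate 2 was 3.91 times the median of the other 3. Chance puts about 1 in 20 such sets past this value, so 1 of 14 is about what chance gives. The share of all detected genes past it was not computed. Cyp4a8 did not pass the limma variance test (adjusted p = 0.233), and its other probes were above background on no array. The ratio of Cyp2d5, whose replicate 4 was lowest, was 0.819 and did not pass.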

How the results depend on the processing

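The count of 13 detected Cyp genes was the same, with the same 13 genes, when 3 of 4 arrays sufficed, with outlier spots kept and without any 1 replicate. It was 10 when every probe had to be detected (47.7% of all named genes), which dropped Cyp27b1, Cyp2c7 and Cyp4a8, and 23 with the flag for positive and significant signal, which added Cyp1b1, Cyp26a1, Cyp2b15, Cyp2c13, Cyp2c6v1, Cyp2d4, Cyp2j4, Cyp4a1, Cyp4f40 and Cyp4f5; that flag passed 61.7% of all named genes. The count of detected electron transfer, haem, receptor, Ahr battery and other P450 genes stayed within 1.5 times under all 8 alternatives. The median SD of 0.138 ran from 0.0739 with normexp to 0.173 with the weaker flag. The count past the variance test was 0, and 1 (Cyp4a8) with the percentile over all probes. Without 1 replicate it was 0 to 1, the 1 being Cyp4a8 without replicate 3 or 4. Of 65 ranges of single genes under settings that kept all replicates, 52 moved by less than 1 SD, and of 52 without 1 replicate, 41 did. Without replicate 1 the range of Cyp4f6 went from 0.28 to 0.09 and that of Cyp2j3 from 0.29 to 0.09; the cause of the other changes was not tested. No paired analysis was possible because there is 1 group. Signal over background limits Cyp2s1, Cyp2j3, Cyp4f17, Cyp21a1 and Cyp27b1, whose signals were at most 105. The same limit holds for Nr1i2, Vdr, Nr1h4 and the hepatocyte gene Tf. Their mean levels were -5.81, -5.90, -6.17 and -5.76, against -5.74 for Cyp4f17.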

Other observations

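P450 genes outside the naming rule were also looked at. Cyp51, the sterol demethylase gene of cholesterol synthesis, was detected at a level of 1.53 ± 0.07 (SD, n = 4). Tbxas1, which encodes thromboxane synthase, a P450 of platelets and macrophages, was at 3.49 ± 0.07, with replicates from 3.41 to 3.55. Ptgis, the prostacyclin synthase gene of vessel walls, was above background on no array. The probe of Cyp4f1, which has 2 spots, had 1 spot above background in replicate 3 (signal 23.5) while the other spot was at 4.28, and the gene was not counted there.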
